A study of Mus musculus with 15 samples.

Results

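D + Q–treated hearts were compared with vehicle-treated hearts of dystrophic mice by bulk RNA-seq. The comparison holds 7 of the 15 libraries of the series, chosen by their labels alone, 3 from D + Q–treated and 4 from vehicle-treated mice. All 7 came from DBA/2J-mdx mice, which lack dystrophin, so both groups carry the mutation and no healthy heart enters the comparison. Dosing began at 12 months of age, was given 2 times per week for 4 months and ended with collection at 16 months, and consisted of dasatinib, a kinase inhibitor, and quercetin, a flavonoid, or of the vehicle. This drug pair is used as a senolytic, a treatment meant to remove senescent cells. The labels give 1 heart per library, with 2 females and 1 male in the D + Q group and 2 females and 2 males in the vehicle group. The chambers that went into the RNA and the time of day of collection are not given in the sources used here.

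A heart consists mainly of cardiomyocytes by volume, which contract through sarcomeres, cycle calcium through the sarcoplasmic reticulum and make most of their ATP in mitochondria from fatty acids. Fibroblasts, endothelial cells, mural cells, macrophages and the epicardial lining fill the space between them, and fibroblasts make most of the matrix that accumulates in dystrophic hearts. Atria and ventricles use different myosin light chains, so genes of either chamber also report how much of each chamber a sample holds. The circadian clock is a loop in which BMAL1 and CLOCK activate the Per, Cry, REV-ERB and PAR bZIP genes, whose products feed back on it. Levels of these genes turn over once a day in heart.

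The deposited values were TPM (transcripts per 1000000), a length-scaled share of a library that does not retain its depth, which is therefore unknown. Of 56980 genes, 16132 reached 0.5 TPM in 3 or more of these hearts and entered a limma fit of log2(TPM + 0.5) that had labelled sex as a covariate. Fold changes below are D + Q minus vehicle on that scale, which understates changes of genes at low TPM, and values of single hearts are given in the order of replicates 1 to 4 for vehicle and 1 to 3 for D + Q. Correlations between hearts of the same group ran from 0.972 to 0.982. Genes above 0 TPM numbered 24089 to 25378 in the vehicle hearts and 22579 to 22818 in the D + Q hearts. The 10 most abundant genes took 50.1% to 50.7% of TPM with vehicle and 45.4% to 47.3% with D + Q. The groups did not overlap in either measure, and whether libraries of the groups differed in depth or preparation was not tested. Vehicle replicate 2 had the highest summed TPM of the 4 vehicle hearts in 37 of the 70 gene lists used here. The D + Q replicate 3 library, labelled male, held 47.2 TPM of Xist, the transcript of the inactive X chromosome, and at most 0.0279 TPM of any of 4 Y-linked genes, where the 2 male vehicle hearts held at most 0.415 TPM of Xist and at least 7.58 TPM of each Y-linked gene. The main fit keeps the label, which these values contradict, and results are therefore also given with sex read from expression. All 3 D + Q hearts then read as female, so the fold change rests on them and the 2 female vehicle hearts. The 2 male vehicle hearts add only to the sex term and the spread. In a call lost in that fit, fewer hearts and the changed sex term cannot be told apart. Myh6, the alpha myosin heavy chain that marks cardiomyocytes, was at 4002 to 4877 TPM with vehicle and 5002 to 5741 TPM with D + Q.

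At an adjusted p-value from limma (Benjamini-Hochberg over all 16132 genes) under 0.05 and a log2 fold change beyond 0.5 in size, 17 genes were higher in D + Q–treated hearts, 0.105% of those tested, and 34 were lower, 0.211%. The groups did not overlap for 1553 genes with the D + Q hearts on top (9.63%, called above in what follows) and for 898 with the D + Q hearts at the bottom (5.57%, called below). Over all tested genes the median log2 fold change was -0.0025, and 49.5% of the genes had a positive one. The numbers depended on single hearts. Without vehicle replicate 2, 0 genes passed the limma test, with 2185 genes at an unadjusted p-value under 0.05 against 2846 with all 7 hearts, and without vehicle replicate 3, 59 genes were higher and 61 lower. Of the 51 called genes, 43 kept their call without vehicle replicate 3, 15 without vehicle replicate 1, 6 without D + Q replicate 1, 4 without vehicle replicate 4, D + Q replicate 2 or D + Q replicate 3, and 0 without vehicle replicate 2. With sex read from expression, 3 genes were higher and 22 lower, and 18 of the 51 kept their call. Gene lists are described below by their calls, their groups and their medians, to be read against these percentages.

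A pair of features of these TPM values bears on every list. The share of genes whose D + Q hearts lay above the vehicle hearts was larger at higher levels, from 3.45% of the 5710 genes under 3 TPM to 8.79% of those from 3 to 30 TPM, 27.6% of those from 30 to 300 TPM and 53.3% of the 195 genes at 300 TPM or more. The median log2 fold change rose with it, at -0.09, 0.009, 0.095 and 0.17 in that order. In addition, structured noncoding RNAs (the 7SL, 7SK and U-type RNAs and the RNase P and MRP RNAs) took 19.7%, 20.8%, 20.8% and 20.7% of all TPM in the vehicle hearts and 14.1%, 15.9% and 14.6% in the D + Q hearts, with no overlap. The 2 near-identical 7SL copies Rn7s1 and Rn7s2, which cannot be told apart by short reads, summed to 125220 ± 4385 TPM (SD, n = 4) with vehicle and 84018 ± 4834 TPM (SD, n = 3) with D + Q. Rpph1, the RNA of RNase P, was at 1202, 1388, 1341 and 1368 TPM with vehicle and at 871, 980.2 and 874 TPM with D + Q, and was called lower, with a log2 fold change of -0.56 (limma adjusted p = 0.037). The paper states that libraries were made with an mRNA kit, and whether the kit carried over these RNAs unequally between the groups was not tested. Nuclear protein-coding genes took 33.0% to 35.7% of TPM with vehicle and 36.04% to 38.0% with D + Q. Rescaled to the total of nuclear protein-coding genes, a scaling chosen after the data had been seen, the median of all genes was -0.08, 9 genes were called higher and 49 lower, and the D + Q hearts lay above for 644 genes and below for 2263.

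**Figure D1:**
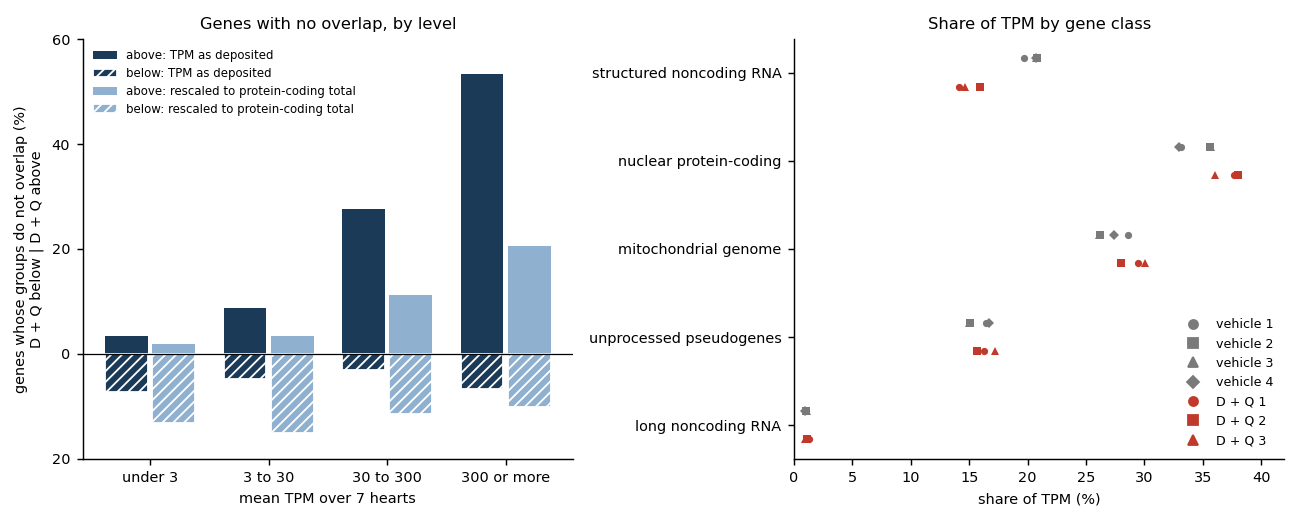
Left, the percentage of tested genes whose D + Q hearts all lay above (up) or below (down, hatched) the vehicle hearts, by mean TPM over 7 hearts, for TPM as deposited and rescaled to the nuclear protein-coding total. Right, each gene class as a percentage of TPM, 1 point per heart, where structured noncoding RNA sits between 19.7% and 20.8% in vehicle hearts and between 14.1% and 15.9% in D + Q hearts.

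Clock genes lay apart in both directions. All 14 tested repressors and output genes lay below the vehicle hearts and 7 of them were called lower, while 5 of the 7 tested activators and partner genes lay above and 1, Bmal1, was called higher. The median log2 fold change was -0.86 for the former list and 0.56 for the latter. With all 7 hearts, the 7 calls among repressors and output genes stood beside 6 among atrial genes, and with sex read from expression they were 3 against 8.

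Bmal1 (ENSMUSG00000055116, chromosome 7 of GRCm39, 112806152 to 112914735), the activator that pairs with CLOCK, was at 2.41, 2.03, 3.15 and 1.35 TPM in the vehicle hearts and at 9.47, 10.2 and 8.55 TPM in the D + Q hearts. The groups were well apart, with a log2 fold change of 1.85 (SE 0.20, limma adjusted p = 0.0284). Its partner Clock was at 13.8, 12.9, 16 and 11.4 TPM with vehicle and 19.6, 21.1 and 20.4 TPM with D + Q, and Npas2, which can replace CLOCK, was at 1.68, 1.01, 1.5 and 0.581 and 3.74, 4.09 and 2.46 TPM. Nfil3, a repressor that peaks with Bmal1, was at 2.25, 2.05, 3.58 and 3.09 TPM with vehicle and 6.09, 8.18 and 4.65 TPM with D + Q. These 3 genes did not overlap between the groups and did not pass the test, with limma adjusted p-values of 0.0934 for Clock, 0.105 for Npas2 and 0.103 for Nfil3. Cry1, a late repressor, overlapped, and Rora, a receptor that activates Bmal1, was at 10.3 to 12.7 TPM with vehicle and 9.08 to 10.2 TPM with D + Q.

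Among the repressors, Per2 (ENSMUSG00000055866, chromosome 1 of GRCm39, 91343700 to 91387069) was at 3.78, 6.04, 4.84 and 4.26 TPM with vehicle and at 1.41, 1.37 and 1.37 TPM with D + Q. Its log2 fold change was -1.50 (SE 0.14, limma adjusted p = 0.0269), and the 3 D + Q hearts were almost equal. Per3 was at 6.25, 10.8, 5.55 and 9.29 TPM and 2.31, 2.23 and 2.02 TPM, with a log2 fold change of -1.62 (limma adjusted p = 0.0498). Ciart (ENSMUSG00000038550, chromosome 3 of GRCm39, 95785815 to 95789991), a repressor of CLOCK and BMAL1, was at 10.7, 13, 8.33 and 14.8 TPM with vehicle and 2.07, 2.86 and 1.1 TPM with D + Q. Its log2 fold change of -2.35 (SE 0.28, limma adjusted p = 0.0348) was the lowest of the list. Of the REV-ERB receptors, which repress Bmal1, Nr1d2 was called lower, at 34.7, 38.8, 37.4 and 41.3 TPM with vehicle and 23.2, 21.5 and 22.3 TPM with D + Q (log2 fold change -0.75, limma adjusted p = 0.0284). Nr1d1 was at 74.8, 99.8, 74.6 and 69.1 and 54.7, 55 and 59.1 TPM and did not pass, with a limma adjusted p of 0.117.

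The 3 PAR bZIP factors, which carry the rhythm to D-box genes, were all called lower. Dbp (ENSMUSG00000059824, chromosome 7 of GRCm39, 45354512 to 45359627) was at 53.9, 77.3, 50.2 and 71.4 TPM with vehicle and 15.4, 8.42 and 12.8 TPM with D + Q, a log2 fold change of -2.34 (SE 0.23, limma adjusted p = 0.0284). Tef was at 41.8, 63.5, 46.8 and 53.1 TPM and 27, 18.3 and 21.8 TPM, a log2 fold change of -1.20, and Hlf was at 8.65, 12.3, 8.49 and 12.3 TPM and 4.13, 3.12 and 3.69 TPM, a log2 fold change of -1.38, with limma adjusted p-values of 0.0498 for Tef and 0.037 for Hlf. The other 6 members, Per1, Cry2, Bhlhe40, Bhlhe41, Usp2 and Wee1, ran from -0.97 for Per1 to -0.50 for Usp2, with the groups apart and limma adjusted p-values between 0.0891 for Bhlhe40 and 0.115 for Per1. A wider list of 22 genes with daily output in heart, among them Pdk4, Por and Cdkn1a, had 0 calls, 2 members above and 5 below.

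The median of the 14 repressors and output genes ran from -1.03 to -0.78 over the 18 alternative fits. Not all of these fits are distinct, and that without the trend repeats the median of -0.86. As all 14 genes lay below the vehicle hearts, the sign could change only with the scaling. On both other scales all 14 still lay below. The calls did not hold as well. Of the 7 called members, 3 kept their call with sex read from expression, 3 without vehicle replicate 1, 1 without D + Q replicate 1, and 0 without vehicle replicate 2, vehicle replicate 4, D + Q replicate 2 or D + Q replicate 3. Bmal1 kept its call without vehicle replicate 1 or 3 and lost it with sex read from expression and without any of the other 5 hearts.

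**Figure D2:**
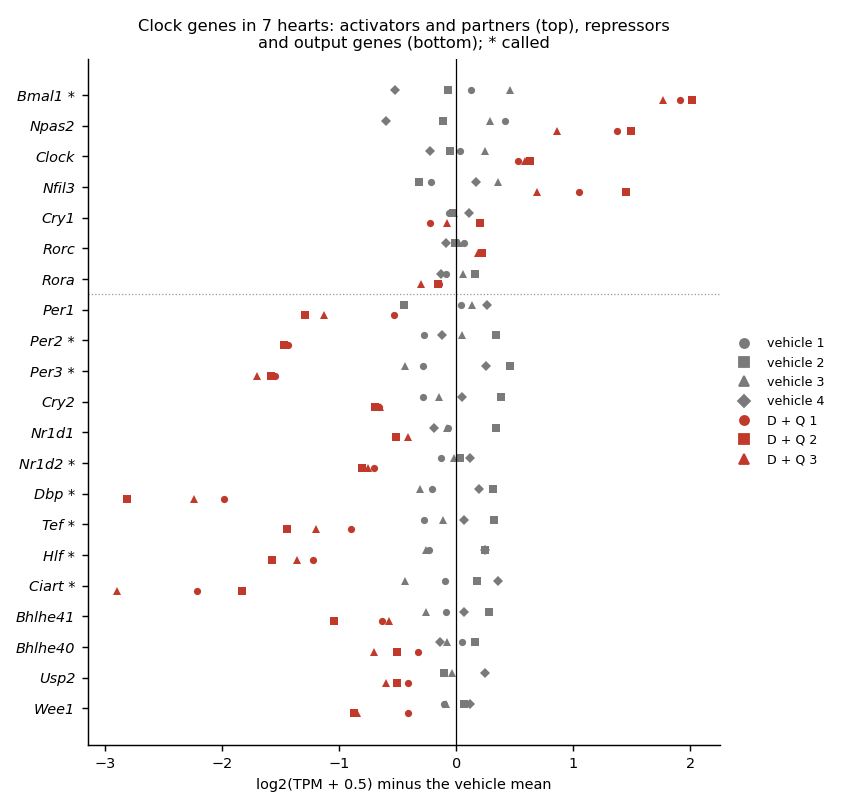
Clock genes in 7 hearts, as log2(TPM + 0.5) minus the vehicle mean, 1 point per heart, with activators and partners above the dotted line and repressors and output genes below it. In all 14 genes below the line, the 3 D + Q hearts sit left of the 4 vehicle hearts.

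The loop acts in part through E-box and D-box elements in promoters, and the 250 bases before the start of the canonical GENCODE M39 transcript were read from GRCm39 for 16054 tested genes. Elements of the ROR and REV-ERB receptors, which act on Bmal1, are not reported here, so a promoter without a match may hold other clock elements. The E-box CACGTG, bound by BMAL1 and CLOCK and its own reverse complement, was found on 5 of the 14 repressor and output promoters (Per1, Tef, Ciart, Bhlhe40 and Usp2), on 1 of the 7 activator and partner promoters (Cry1), and on 6.98% of all 16054. The D-box TTATGTAA, bound by DBP, TEF and HLF and searched on both strands, was found on the Per2 and Per3 promoters and on 0.716% of all, and its variant TTACGTAA on none of the 21 and on 0.0997% of all. A match describes these letters in this window and is not a bound site. Shown, for the elements they hold or lack, are the promoters of the called genes Tef, Per3 and Nr1d2 and of Per1, each 5′ to 3′ on the gene's strand in GRCm39, with matched elements in capitals.
Tef, an E-box on the plus strand of chr15:81695365-81695614: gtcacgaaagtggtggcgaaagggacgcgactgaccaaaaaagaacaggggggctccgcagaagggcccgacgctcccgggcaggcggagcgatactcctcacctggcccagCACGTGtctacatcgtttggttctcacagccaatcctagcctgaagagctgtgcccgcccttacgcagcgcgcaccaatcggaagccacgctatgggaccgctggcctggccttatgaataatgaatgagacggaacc
Per3, 2 D-boxes on the minus strand of chr4:151129141-151129390: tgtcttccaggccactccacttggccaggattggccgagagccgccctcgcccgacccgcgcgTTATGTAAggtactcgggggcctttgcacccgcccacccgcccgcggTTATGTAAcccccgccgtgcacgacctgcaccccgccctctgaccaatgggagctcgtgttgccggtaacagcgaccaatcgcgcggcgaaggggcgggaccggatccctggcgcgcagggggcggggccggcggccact
Per1, an E-box on the plus strand of chr11:68989018-68989267: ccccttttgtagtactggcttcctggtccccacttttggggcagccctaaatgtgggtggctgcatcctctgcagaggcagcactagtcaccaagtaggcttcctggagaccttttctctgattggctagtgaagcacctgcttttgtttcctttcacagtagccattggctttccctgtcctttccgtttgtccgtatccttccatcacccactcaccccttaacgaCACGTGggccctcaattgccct
Nr1d2, no match, on the plus strand of chr14:4230295-4230544: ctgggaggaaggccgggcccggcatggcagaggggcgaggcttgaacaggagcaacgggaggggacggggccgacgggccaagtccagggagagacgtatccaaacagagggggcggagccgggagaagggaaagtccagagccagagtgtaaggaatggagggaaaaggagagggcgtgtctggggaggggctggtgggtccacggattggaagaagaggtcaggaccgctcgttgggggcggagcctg
Ciart, the lowest of the list, had 3 E-boxes in its window, and the stretch with the 2 nearest the start, on the minus strand of chr3:95789574-95789603, reads as follows.
Ciart: ggaggCACGTGcagaaccgCACGTGtctgg

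The 4 lowest log2 fold changes of all called genes were those of atrial genes. Of 27 tested members, 11 lay below the vehicle hearts, 1 above, and 6 were called lower, with a list median of -0.57. In a bulk sample, fewer cells of a type and less RNA per cell cannot be told apart, and neither can less atrial tissue. Mybphl, an atrial thick-filament protein, was at 4.52, 59.7, 30.05 and 16.9 TPM with vehicle and at 0.595, 0.183 and 0.0424 TPM with D + Q, a log2 fold change of -5.02 (SE 0.53, limma adjusted p = 0.0284). Sbk3, a kinase of the SH3-binding family, was at 4.68, 30.6, 24.4 and 15.7 TPM and 1.19, 1.05 and 1.05 TPM, a log2 fold change of -3.48 (limma adjusted p = 0.0374). Dkk3, a secreted member of the Dickkopf family, was at 7.08, 32.5, 18.6 and 13.4 TPM and 2.8, 3.43 and 2.3 TPM, a log2 fold change of -2.43 (limma adjusted p = 0.037). In each of them vehicle replicate 2 was the highest heart and vehicle replicate 1 the lowest vehicle heart. The other 3 calls were the atrial light chains Myl7 and Myl4 and Sln, the atrial regulator of the calcium pump.

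The order of the 4 vehicle hearts was the same in all 6 called genes, replicates 2, 3, 4 and 1 from high to low, over a range of 94.1 to 730.1 TPM for Myl7. Nppa, the atrial natriuretic peptide, which ventricles also make under load, was at 688, 2956, 1268 and 574 TPM with vehicle and 373, 418 and 421 TPM with D + Q, and its limma adjusted p was 0.126. Nppb, the ventricular natriuretic peptide, was at 196, 206, 206 and 118 TPM and 132, 122 and 209 TPM and overlapped. Kcnj3, an atrial potassium channel, and the transcription factor gene Tbx5 overlapped between the groups. Smpx, a small muscle protein, was the member above, at 134 to 217 TPM with vehicle and 223 to 236 TPM with D + Q. Without vehicle replicate 2, none of the 6 calls remained. With sex read from expression all 6 remained, and 8 members were called.

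Of the pacemaker and conduction genes, 19 were tested, 0 were called, 4 lay above and 5 below. Gja1, the main ventricular gap junction protein, was at 208, 188, 220.0 and 204 TPM with vehicle and 273, 262 and 257 TPM with D + Q (limma adjusted p = 0.0911), and Cacna1g, a T-type calcium channel, was at 3.77, 5.0, 4.59 and 4.48 and 8.28, 6.37 and 7.76 TPM. Cacna1d, a calcium channel of atria and the sinoatrial node, was at 1.36, 2.45, 2.42 and 1.51 and 1.32, 0.856 and 0.786 TPM. Of 12 tested genes that are more abundant in ventricles, 6 lay above, 0 below and 0 were called, with a median of 0.26 that was 0.16 on the protein-coding scale, where 4 lay above and 1 below. Myl2, the ventricular regulatory light chain, was at 7254, 6000.2, 7536 and 7183 TPM with vehicle and 9087, 8684 and 8699 TPM with D + Q, and vehicle replicate 2, the heart with the most atrial transcripts, was the lowest. Fhl2 and Rpl3l, both enriched in striated muscle, were at 348 to 507 and 68.2 to 92.1 TPM with vehicle and at 634 to 651 and 109 to 114 TPM with D + Q. The part of atrial content in the differences of other lists was not tested.

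**Figure D3:**
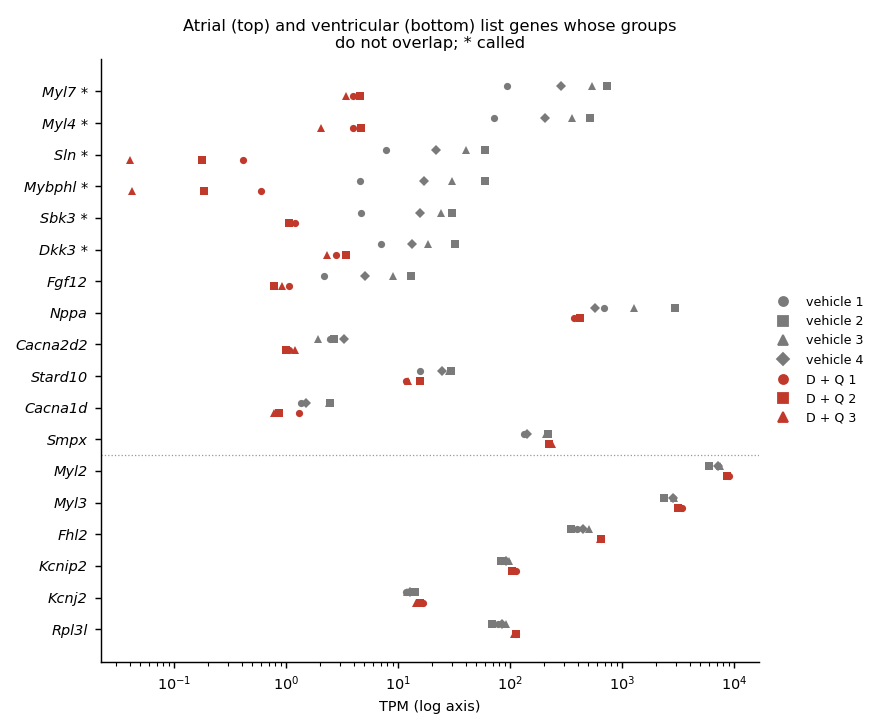
Genes of the atrial list (top) and the ventricular list (bottom) whose groups did not overlap, in TPM on a log axis, 1 point per heart, with called genes starred. The D + Q hearts sit at or below 4.62 TPM for Myl7 and Myl4, while the vehicle hearts spread from 72.0 to 730.1 TPM.

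Genes of mitochondrial energy metabolism had small positive fold changes in the D + Q hearts, and none on the lists below passed the test. All 19 tested genes of the TCA cycle, 31 of 38 subunits of complex I, 13 of 14 of complexes II and III, 11 of 14 of complex IV and 13 of 15 of complex V lay above the vehicle hearts, and none lay below. The median log2 fold changes were 0.25, 0.21, 0.23, 0.20 and 0.25 in that order. Every one of the 81 tested complex I to V subunits and every TCA cycle gene had a positive fold change, although 1 complex I and 2 complex IV subunits were negative on the protein-coding scale and likewise 1 and 2 with sex read from expression. These genes are abundant, with list medians between 228 and 776 TPM, and the shares above stand beside 27.6% for all genes of 30 to 300 TPM and 53.3% for those at 300 TPM or more.

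Atp5f1c, the gamma subunit of ATP synthase, was at 464, 491, 509 and 471 TPM with vehicle and 603, 614 and 621 TPM with D + Q, a log2 fold change of 0.33 (SE 0.05, limma adjusted p = 0.0702). Ndufv1, the complex I subunit that takes electrons from NADH, was at 209, 199, 223 and 217 TPM and 273, 276 and 252 TPM (log2 fold change 0.33, limma adjusted p = 0.0934). Sdha, the catalytic subunit of succinate dehydrogenase, was at 281, 272, 311 and 299 TPM and 368, 373 and 355 TPM (log2 fold change 0.33, limma adjusted p = 0.0934). In all 3 genes the groups were apart and each group spread over a narrow range. Idh2, the mitochondrial isocitrate dehydrogenase, was at 465, 427, 487 and 472 TPM with vehicle and 587, 592 and 570.1 TPM with D + Q, and Pdha1, of pyruvate dehydrogenase, at 278, 283, 302 and 285 and 354, 350.2 and 338 TPM. Cox5a, of cytochrome oxidase, was at 434, 469, 523 and 466 TPM and 586, 569.8 and 571 TPM.

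Summed over the 38 genes, complex I subunits amounted to 9015, 9009.7, 9992 and 9460.2 TPM in the vehicle hearts and 10714, 10993 and 10828 TPM in the D + Q hearts. The TCA cycle summed to 5101, 4978, 5447 and 5207 TPM with vehicle and 6135, 6290.2 and 6061 TPM with D + Q. The groups did not overlap in either sum, and vehicle replicate 3 was the nearest to the D + Q hearts in both. Of 75 mitochondrial ribosome genes, 19 lay above and 0 below, with a median of 0.15, and 66 were positive. Of the 13 protein genes of the mitochondrial genome, 4 lay above and 0 below, and their summed TPM overlapped, at 243854 to 270619 with vehicle and 261792 to 280424 with D + Q. Near-identical nuclear pseudogenes can share reads with these genes, and unprocessed pseudogenes, the class that holds such copies, took 14.9% to 17.2% of TPM.

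Lists of fuel use had similar medians. The fatty acid, glycolysis and ketone lists were at median levels of 157, 104 and 42.9 TPM, and of all genes of 30 to 300 TPM 27.6% lay above. In fatty acid uptake and oxidation, 17 of 33 tested genes lay above and 0 below, with a median of 0.23. Lpl, which frees fatty acids from lipoproteins, was at 789, 766, 900.1 and 779.9 TPM with vehicle and 1079, 1051 and 1049.5 TPM with D + Q (log2 fold change 0.38, limma adjusted p = 0.0891), and Etfa, which takes electrons from beta-oxidation, was at 216, 231, 264 and 237 and 312, 289 and 295 TPM. In glycolysis, lactate and glycogen use, 16 of 29 lay above and 0 below, with a median of 0.18. Slc2a4, the insulin-regulated glucose transporter, was at 149, 143, 154 and 146 TPM with vehicle and 186, 184 and 165 TPM with D + Q, and Pygm, muscle glycogen phosphorylase, at 303, 324, 331 and 301 and 379, 383 and 351 TPM. Ketone and branched-chain amino acid catabolism had 9 of 22 above and 0 below, with a median of 0.19. Of 39 mitochondrial carriers, 9 lay above and 4 below. Slc25a4, the ADP/ATP carrier of heart, was among those above, at 749 to 918 TPM against 1017 to 1062 TPM, and Slc25a37, the iron importer of mitochondria that is abundant in red cell precursors, among those below, at 10.9, 17.8, 7.83 and 7.66 TPM against 4.46, 4.65 and 5.29 TPM.

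Regulators of mitochondrial genes had 7 of 20 members above and 0 below. Perm1, a muscle partner of PGC-1 and the ERR receptors, was at 61.9, 57, 71.6 and 59.97 TPM with vehicle and 86.2, 86.4 and 86.6 TPM with D + Q (log2 fold change 0.46, limma adjusted p = 0.0904). Esrrb, an ERR receptor, was at 6.6, 6.66, 6.37 and 6.14 and 8.14, 8.82 and 8.15 TPM, and Ppargc1a, which encodes PGC-1alpha, lay above in all D + Q hearts with a log2 fold change of 0.89 (limma adjusted p = 0.0908). Outside the lists, Acss1, mitochondrial acetyl-CoA synthetase, was called higher, at 53.4, 53, 61.2 and 58.4 TPM with vehicle and 87, 85.2 and 79.7 TPM with D + Q, a log2 fold change of 0.56 (SE 0.07, limma adjusted p = 0.0367).

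On the nuclear protein-coding scale the medians were 0.11 for complex I, 0.12 for complexes II and III, 0.10 for complex IV, 0.14 for complex V, 0.14 for the TCA cycle and 0.13 for fatty acids, while the median of all genes was -0.08. The members above numbered 9 of 38, 6 of 14, 4 of 14, 3 of 15, 10 of 19 and 7 of 33. Of all genes of 30 to 300 TPM, 11.2% lay above on this scale, with a median of -0.006. Of those at 300 TPM or more, 20.5% lay above, with a median of 0.07. Glycolysis and ketone and branched-chain amino acid catabolism both came to 0.08, with 8 of 29 and 2 of 22 above, mitochondrial ribosome genes to 0.05 with 4 of 75 above, and the mitochondrial genome to 0.02 with 0 of 13 above. Mitochondrial carriers turned from 0.04 to -0.06, with 2 of 40 above and 12 below. Over all 18 alternative fits the complex I median ran from 0.11 to 0.25 and the TCA cycle median from 0.14 to 0.28. For comparison, the 80 tested cytosolic ribosome genes, at a list median of 165 TPM, had 4 members above, 0 below and a median of 0.04, which turned to -0.07 (81 genes) on the protein-coding scale and -0.04 with sex read from expression. The 47 proteasome genes had 12 above and a median of 0.08, which turned to -0.02 on the protein-coding scale.

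**Figure D4:**
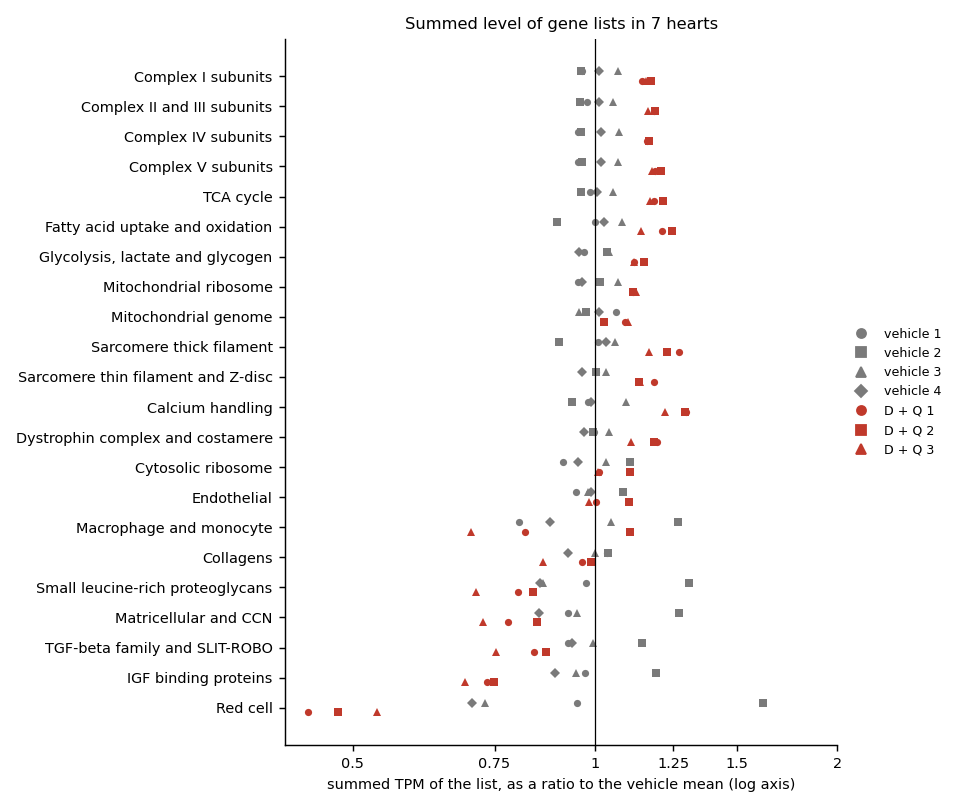
Summed TPM of gene lists in each of 7 hearts as a ratio to the mean of the 4 vehicle hearts, on a log axis. D + Q hearts sit right of all vehicle hearts for the respiratory complexes, TCA cycle, sarcomere and calcium lists, and left of them for IGF binding proteins and red cell genes.

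Sarcomere and calcium handling genes had medians close to the metabolic ones, while the median of potassium channels was lower, at 0.11. In the sarcomere, 6 of 10 thick-filament genes and 14 of 25 thin-filament and Z-disc genes lay above, with medians of 0.26 and 0.21, and 0 were called. These lists are abundant, at medians of 1008 and 454 TPM, and their shares above are near the 53.3% of all genes at 300 TPM or more. Actc1, cardiac actin, was at 1779, 1753, 1996 and 1818 TPM with vehicle and 2338, 2281 and 2289 TPM with D + Q (log2 fold change 0.32, limma adjusted p = 0.098). Tcap, the titin cap of the Z-disc, had a negative fold change, at 645, 699.8, 711 and 795 TPM with vehicle and 527, 468 and 505 TPM with D + Q (log2 fold change -0.50, limma adjusted p = 0.081). Myh7, the slow myosin that rises in loaded hearts, was at 1400.4, 1239, 1331 and 1049 TPM and 1849, 1519.8 and 1507 TPM, while Ankrd1, a stress gene of the sarcomere, overlapped at 1368, 1416, 977 and 1046 and 983, 945 and 957 TPM.

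In the complex that dystrophin completes at the membrane, 9 of 18 genes lay above and 0 below. The median level of this list was 31.9 TPM, and of all genes of 30 to 300 TPM 27.6% lay above. Dag1, dystroglycan, was at 102, 103, 111 and 94.3 TPM with vehicle and 128, 132 and 131 TPM with D + Q, and Cav3, muscle caveolin, at 17.9, 16.6, 19.96 and 19.9 and 25.5, 22.5 and 28.1 TPM, with limma adjusted p-values of 0.0922 for Dag1 and 0.0999 for Cav3.

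Calcium handling, at a median level of 81.2 TPM, had 13 of 24 genes above and 0 below, with a median of 0.22. Of all genes of 30 to 300 TPM, 27.6% lay above. Pln, the brake on the calcium pump, was at 2823, 2696, 2923 and 2751 TPM with vehicle and 3632, 3691 and 3519.9 TPM with D + Q, a log2 fold change of 0.36 (SE 0.06, limma adjusted p = 0.0812). The pump itself, Atp2a2, was at 1749, 1696, 2174 and 1882 TPM and 2499, 2485 and 2304 TPM (log2 fold change 0.36, limma adjusted p = 0.126), and neither gene passed the test. Slc8a1, the sodium-calcium exchanger, was at 209.8, 204, 221 and 193 TPM and 264, 252 and 262 TPM. Of 23 potassium channel genes, 7 lay above, 1 below, and Kcnk3 (ENSMUSG00000049265, chromosome 5 of GRCm39, 30745243 to 30783689), a background channel, was called higher at 61.6, 55.4, 64 and 59.2 TPM with vehicle and 85.6, 91.2 and 82.7 TPM with D + Q (log2 fold change 0.52, SE 0.07, limma adjusted p = 0.042). Abcc9, a subunit of the ATP-sensitive channel, was at 71.2, 67, 74.5 and 73.7 and 101, 101 and 90.2 TPM. Kcnk3 lost its call on both other scales (nuclear protein-coding and median-of-ratios), with sex read from expression and without any heart other than vehicle replicate 3. On the protein-coding scale the medians were 0.16 for the thick filament, 0.10 for the thin filament and Z-disc, 0.12 for calcium handling, 0.08 for the dystrophin complex and 0.01 for potassium channels.

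Small heat-shock proteins, which guard the sarcomere, had 3 of 9 members above, among them Hspb7, which was called higher with a log2 fold change of 0.82 (limma adjusted p = 0.0445). This call was lost on both other scales and without any 1 of the 7 hearts, and the list median of 0.12 was 0.02 on the protein-coding scale, with 1 member above. Cryab was at 853 to 1085 TPM with vehicle and 1087 to 1126 TPM with D + Q. Among the larger chaperones 6 of 32 lay above and 1 below, 2 and 1 on the protein-coding scale, with Hspa9, of mitochondria, at 154, 149, 168 and 157 and 187, 181 and 182 TPM.

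**Figure D5:**
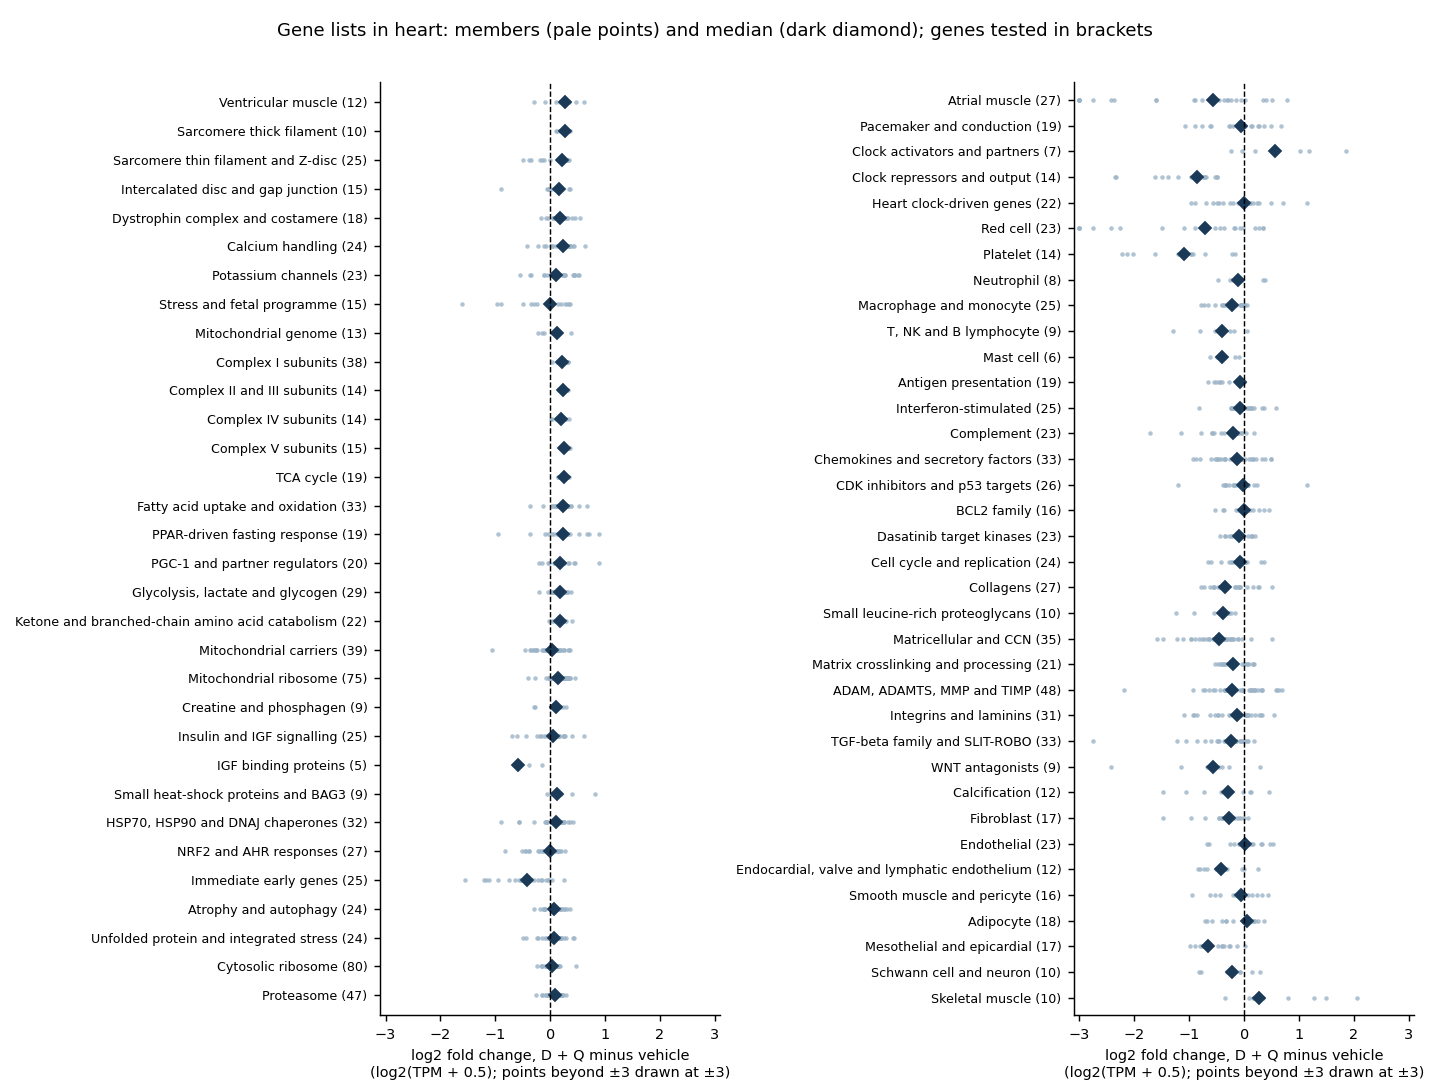
Log2 fold changes of the members (pale points) and the median (dark diamonds) of 68 gene lists with 2 or more tested genes, sex-linked genes left out, with the number tested in brackets and a dashed line at the median of all genes, -0.0025. The medians of the respiratory complexes, the TCA cycle, the sarcomere and calcium handling sit close together right of the line, from 0.20 to 0.26, while that of IGF binding proteins is at -0.59. All genes of 30 to 300 TPM and those at 300 TPM or more had medians of 0.095 and 0.17.

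Matrix and growth-factor genes had mostly negative fold changes. Of 35 matricellular, CCN and elastic-fibre genes, 13 lay below and 0 above, with a median of -0.45, and 33 were negative. Of 27 collagens 10 lay below and 2 above, with a median of -0.35, and of 10 small leucine-rich proteoglycans 4 lay below, with a median of -0.38. None of these 3 lists held a called gene. Their median levels were 10.7, 7.58 and 23.9 TPM, and of all genes of 3 to 30 TPM 4.90% lay below and 8.79% above. The protease, TGF-beta and WNT antagonist lists below, at 4.21, 6.92 and 9.39 TPM, fall in the same range. The median was -0.28 for the 17 tested fibroblast markers, of which 4 lay below and 0 above.

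Col3a1, a fibrillar chain, was at 70.5, 86.1, 80.6 and 69.6 TPM with vehicle and 56.7, 67.6 and 54.7 TPM with D + Q, a log2 fold change of -0.40 (SE 0.07, limma adjusted p = 0.0934). Col1a2, of type I collagen, was at 38.8, 42.1, 34.8 and 36 TPM and 27.4, 30.5 and 21.6 TPM (log2 fold change -0.55, limma adjusted p = 0.0977). The basement membrane chain Col4a1, the most abundant collagen, overlapped at 174, 145, 154 and 154 and 184, 178 and 161 TPM, and the summed collagens overlapped too. Of the 2 collagens above, Col4a2 was at 53.4 to 60.9 TPM with vehicle and 67 to 68.2 TPM with D + Q, and Col5a3 at 5.03 to 6.93 and 7.68 to 10.3 TPM.

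Aebp1, a collagen-binding protein of fibroblasts, was at 14.5, 19.1, 14.9 and 15.2 TPM with vehicle and 10.7, 10.1 and 9.57 TPM with D + Q (log2 fold change -0.65, limma adjusted p = 0.0614). Ccn2, connective tissue growth factor, was at 88.8, 148, 106 and 66.1 TPM and 56.6, 58.8 and 51.3 TPM (log2 fold change -0.90, limma adjusted p = 0.0934), and vehicle replicate 2 was again the highest heart. Tnxb, tenascin X, was at 24.6, 28, 24.7 and 27.8 TPM and 18.8, 21 and 17.6 TPM, and Fmod, fibromodulin, at 5.82, 6.6, 4.09 and 4.08 and 1.52, 2.8 and 1.54 TPM. Sparc lay below at 164 to 187 TPM against 141 to 160.2 TPM. Outside the lists, Efemp1, a fibulin of elastic fibres, was called lower at 25.8, 24.4, 22.5 and 24.7 TPM with vehicle and 17, 14.8 and 14.2 TPM with D + Q (log2 fold change -0.65, limma adjusted p = 0.0423).

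Among proteases and their inhibitors, 7 of 48 tested genes lay above and 7 below. Adam19, a membrane protease, was called higher at 10.3, 10.8, 13.3 and 9.53 TPM with vehicle and 19.4, 19.4 and 16.4 TPM with D + Q (log2 fold change 0.68, SE 0.09, limma adjusted p = 0.0374), a call that was lost on both other scales, with no sex term, with sex read from expression and without any heart other than vehicle replicate 3. The inhibitors split, with Timp4, the one most restricted to heart, at 7.04, 6.59, 8.65 and 6.75 TPM with vehicle and 11.3, 10.7 and 12.4 TPM with D + Q, and Timp3 at 74, 127, 89.7 and 84.1 TPM and 59.7, 64.1 and 59.2 TPM. Timp2 lay below as well, at 50.3, 76, 61.7 and 50.4 and 44.7, 47.1 and 42 TPM. None of the 3 inhibitors passed the test, with limma adjusted p-values of 0.0934 for Timp4, 0.104 for Timp3 and 0.105 for Timp2.

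Of 33 genes of the TGF-beta family and SLIT-ROBO signalling, 6 lay below, 0 above and 1, Slit3, was called lower, with a log2 fold change of -1.06. The ligand Tgfb2 was at 11.8, 11.6, 9.12 and 7.62 TPM with vehicle and 6.51, 5.92 and 5.43 TPM with D + Q (limma adjusted p = 0.11), and Tgfb3 at 14, 18, 12 and 11.8 and 9.63, 10.01 and 7.89 TPM. Among WNT antagonists 4 of 9 lay below, among them Dkk3 and Wif1. IGF binding proteins, which hold IGF outside the cell, had 4 of 5 tested members below and 2 called lower. Their median level was 52.6 TPM, and of all genes of 30 to 300 TPM 3.09% lay below. Igfbp4 (ENSMUSG00000017493, chromosome 11 of GRCm39, 98932064 to 98945218) was at 61.3, 72.2, 58.3 and 56.8 TPM with vehicle and 41.1, 44 and 34.5 TPM with D + Q, a log2 fold change of -0.67 (SE 0.09, limma adjusted p = 0.042). Igfbp5 was the other call, and Igfbp6 was at 15.6, 21.7, 17.9 and 15.4 and 11.1, 12.8 and 10.2 TPM (limma adjusted p = 0.0561). The ligand Igf1 was at 16.3, 13, 9.56 and 14 TPM with vehicle and 7.27, 6.87 and 8.34 TPM with D + Q, and Irs1, the insulin receptor substrate, at 9.7, 9.75, 11.3 and 8.34 TPM and 15.1, 16.8 and 14.8 TPM, in opposite directions, with limma adjusted p-values of 0.0878 for Igf1 and 0.0597 for Irs1. Igfbp4 and Igfbp5 kept their calls on both other scales and without vehicle replicate 3, and lost them with sex read from expression and without any of the other 6 hearts.

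On the protein-coding scale the matrix medians were further below 0, at -0.40 for collagens, -0.46 for proteoglycans and -0.55 for matricellular genes, with 14, 5 and 18 members below. Over the 18 alternative fits the collagen median ran from -0.40 to -0.14 and the matricellular median from -0.64 to -0.29. Vehicle replicate 2 had the highest summed TPM of matricellular genes, 995, 1368, 1022 and 917 TPM with vehicle against 838, 911 and 781 TPM with D + Q, and the other vehicle hearts lay closer to the D + Q hearts.

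Blood genes had mostly negative fold changes. Of 23 tested red cell genes 11 lay below and 3 above, with a median of -0.72, and 0 were called. Over the 18 alternative fits this median ran from -0.95 without vehicle replicate 3 to -0.34 without vehicle replicate 2. The median level of the list was 13.5 TPM, and of all genes of 3 to 30 TPM 4.90% lay below and 8.79% above. Hbb-bs, adult beta globin, was at 438, 951, 285 and 255 TPM with vehicle and 20.9, 54.4 and 98.8 TPM with D + Q, a log2 fold change of -3.06 (SE 0.62, limma adjusted p = 0.098). Hba-a2, alpha globin, was at 72.6, 149, 58.1 and 55.5 TPM and 3.09, 13.6 and 13.2 TPM, and the near-identical copies Hba-a1 and Hbb-bt share reads with these 2 genes. Alas2, which starts heme synthesis in red cell precursors, was at 47.5, 103, 23.3 and 26.9 TPM with vehicle and 2.73, 4.51 and 7.25 TPM with D + Q (log2 fold change -3.07, limma adjusted p = 0.0891). The D + Q hearts were all under the lowest vehicle heart in these genes, and vehicle replicate 2 was the highest. The 3 members above, Ank1, Sptb and Rhd, differed from these, and Ank1, an ankyrin that muscle also makes, was at 144 to 172 TPM with vehicle and 191 to 213 TPM with D + Q.

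Platelet genes had a median of -1.10 over 14 tested members, all 14 negative, yet only Tubb1 lay below in all hearts. Their median level was 1.86 TPM, and all genes under 3 TPM had a median of -0.09, with 7.32% below. Tubb1, the platelet tubulin, was at 4.21, 9.12, 4.76 and 2.47 TPM with vehicle and 0.965, 1.06 and 0.454 TPM with D + Q and was called lower, with a log2 fold change of -2.13 (SE 0.25, limma adjusted p = 0.0322). Ppbp, a platelet chemokine, was at 27.7, 45.1, 20.7 and 15.6 TPM and 5.73, 24.8 and 1.24 TPM, where D + Q replicate 2 was among the vehicle hearts. Outside the lists, Cd226, a receptor of platelets and lymphocytes, was called lower at 3.36, 5.61, 3.59 and 2.46 TPM with vehicle and 0.609, 0.983 and 0.573 TPM with D + Q (limma adjusted p = 0.0284). None of the 8 tested neutrophil genes lay apart. Tubb1 lost its call with no sex term, with sex read from expression and without any heart other than vehicle replicate 3.

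Of 25 macrophage and monocyte genes 1 lay below and 0 above, with a median of -0.22. The macrophage, antigen presentation, interferon, mast cell and complement lists had median levels between 3 and 30 TPM. In that range 4.90% of all genes lay below and 8.79% above, and the macrophage list, with 4% below, was near the former share. C1qa, of resident macrophages, was at 29.7, 40.04, 39.98 and 33.7 TPM with vehicle and 32.8, 42.6 and 31.7 TPM with D + Q. Antigen presentation had 0 of 19 genes apart, with B2m at 351, 409, 325 and 304 TPM and 264, 461 and 306 TPM, and of 25 interferon-stimulated genes 1 lay above and 1 below. Among 9 tested lymphocyte genes, Ighm, the IgM heavy chain, was at 6.57, 11.2, 7.83 and 7.23 TPM with vehicle and 4.47, 5.54 and 3.89 TPM with D + Q (limma adjusted p = 0.0848). Of 6 tested mast cell genes 2 lay below, all 6 were negative and 0 were called, with a median of -0.41 that was -0.16 without D + Q replicate 3. Their summed TPM was 23.2 ± 1.77 (SD, n = 4) with vehicle and 17.5 ± 3.85 (SD, n = 3) with D + Q, with no overlap. In complement, 6 of 23 lay below and C4a was called lower, at 5.02, 6.48, 4.98 and 6.11 TPM with vehicle and 2.75, 2.08 and 2.1 TPM with D + Q (log2 fold change -1.14, limma adjusted p = 0.037). C4b, its near-identical neighbour, with which it shares reads, was at 35.3, 44.9, 30.6 and 33.5 TPM and 22, 29.6 and 14.9 TPM.

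Genes tied to senescence lay on both sides. Of 26 CDK inhibitors and p53 targets 1 lay above and 3 below, with a median of -0.02. Cdkn1a, which encodes p21, was the member above, at 8.13, 8.66, 18.5 and 8.66 TPM with vehicle and 21.3, 26 and 26.1 TPM with D + Q, a log2 fold change of 1.15 (SE 0.26, limma adjusted p = 0.112), and vehicle replicate 3 was close to the D + Q hearts. Btg2, an antiproliferative p53 target that is also an immediate early gene, was at 42.5, 29.4, 32.4 and 63.2 TPM with vehicle and 27.6, 15.6 and 11 TPM with D + Q. Of 33 secreted factors 2 lay above and 3 below. Ccl2, a chemokine for monocytes, was at 4.09, 3.62, 3.75 and 4.03 and 6.4, 5.78 and 4.84 TPM. Of 16 BCL2 family genes 1 lay above and 1 below, of 23 kinases that dasatinib inhibits 0 and 1, and of 24 cell cycle genes 0 and 3. In the order given, 11.5%, 9.09%, 6.25%, 4.35% and 12.5% of these lists lay below, against 5.57% of all tested genes. The largest share above was 6.25%, against 9.63% of all tested genes.

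Immediate early genes, which respond fast to a stimulus, had 7 of 25 below and 0 above, with a median of -0.43. This median was -0.28 with sex read from expression, and over the 18 alternative fits it ran from -0.48 to -0.16, the latter without D + Q replicate 3 and in labelled females only. Egr3 was at 2.88, 1.93, 2.26 and 4.13 TPM with vehicle and 0.982, 1.06 and 0.640 TPM with D + Q (log2 fold change -1.18, limma adjusted p = 0.098), and Zfp36, which destabilises cytokine mRNA, at 14, 20.02, 16.9 and 17.9 and 12.4, 10.9 and 12 TPM. Vehicle replicate 4 was the highest heart in Egr3 and in the summed list. The median level of the list was 14.9 TPM, and of all genes of 3 to 30 TPM 4.90% lay below.

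Among the other cell types, the epicardial lining had 7 of 17 genes below and 0 above, with a median of -0.66. Its median level was 2.35 TPM, and of all genes under 3 TPM 7.32% lay below. Muc16, a surface mucin of mesothelium, was at 3.66, 3.8, 4.27 and 3.36 TPM with vehicle and 2.22, 2.43 and 1.72 TPM with D + Q (log2 fold change -0.75, limma adjusted p = 0.0561), and Upk3b at 4.66, 6.36, 7.52 and 6.53 TPM and 2.54, 3.61 and 2.82 TPM. Endocardial, valve and lymphatic genes had 5 of 12 below and 1 above. The 23 endothelial genes had a median of 0.01, with Kdr, the VEGF receptor, above at 33.3, 36.5, 35.8 and 34.8 TPM against 46.3, 42 and 45.1 TPM and Plvap, of fenestrated and endocardial endothelium, below at 7.9, 13.1, 9.48 and 8.28 TPM against 5.74, 6.04 and 6.03 TPM. Smooth muscle and pericyte genes had 3 of 16 above and 2 below, adipocyte genes 0 of 18 and 1, and nerve genes 0 of 10 and 2. The shares over all tested genes were 9.63% above and 5.57% below. Some transcripts of other tissues were present. Scgb1a1, of airway club cells, was at 0 TPM in all 4 vehicle hearts and at 1.65, 10.4 and 2.24 TPM in the D + Q hearts (limma adjusted p = 0.0878), while 5 of the 15 genes of that list were at 0 in all 7 hearts. Scgb1a1 thus passed the low-value filter through the D + Q hearts alone. Tnnt3 and Tnni2, of fast skeletal muscle, were at 21.5 and 9.28 TPM in D + Q replicate 2 and at or under 1.77 and 0.805 TPM in the other 6 hearts.

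Several called genes were on no list. Slc41a3, a mitochondrial magnesium transporter, was at 12.8, 12.1, 15.9 and 13.5 TPM with vehicle and 28.5, 32.8 and 25.3 TPM with D + Q, a log2 fold change of 1.03 (SE 0.11, limma adjusted p = 0.0284). Epas1, the hypoxia-inducible factor of endothelium, was at 55.4, 45.8, 54 and 57.7 TPM and 82.5, 82 and 80.5 TPM, a log2 fold change of 0.63 (limma adjusted p = 0.0355). Pde3a, a phosphodiesterase of cardiomyocytes, Ctnnal1, Fstl4, Tmem47 and the noncoding RNAs Gata6os and 4930481A15Rik were also called, with log2 fold changes from 0.53 for Pde3a to 1.00 for 4930481A15Rik. Ryr3, a calcium release channel, was called lower at 1.26, 2.51, 2.79 and 1.75 TPM with vehicle and 0.458, 0.618 and 0.328 TPM with D + Q (limma adjusted p = 0.0284), as were Ctla2a, at 27.9, 36.6, 28.8 and 22.8 TPM and 11.7, 16.4 and 10.5 TPM, Mob3a and Ankrd12. The other 5 named genes called lower, Gm23734, Gm4521, Gm56431, Gm11969 and Gm43802, are a small nucleolar RNA, a structured RNA and pseudogenes, and 3 of them were listed at 0 in all D + Q hearts. All 5 were under 0.5 TPM in every D + Q heart, as was Sln of the atrial list. They passed the low-value filter through the vehicle hearts alone, which favours a lower call.

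The effect in heart was set against that in TA muscle, from mice dosed from 3 to 5 months of age, for 2 months. There were 4 D + Q and 4 vehicle TA libraries, and tissue, age and duration cannot be told apart. The 4 D + Q TA libraries are labelled male and the vehicle ones 2 males and 2 females, so treatment and sex are partly mixed in TA. Labelled sex was a covariate of this fit. Of 14914 genes tested for a difference between the 2 effects, 4 passed, 0.0268%, namely Myl4, Sln, Sbk3 and Bmal1. Myl4, Sln and Sbk3 are on the atrial list, where less atrial tissue in a heart sample cannot be told apart from a lower level per cell. Bmal1 had a log2 fold change of 1.86 in heart and -0.03 in TA in this fit, a difference of 1.90 (SE 0.25, limma adjusted p = 0.0133). Sbk3 had -3.46 and 0.48, a difference of -3.94 (SE 0.55, limma adjusted p = 0.0181). Among the clock repressors, Per2 had 0.47 in TA (limma adjusted p of the difference 0.0655), Dbp 0.15 (0.192) and Ciart 0.36 (0.111), which did not pass. Atp5f1c, of ATP synthase, had 0.03 in TA, a difference of 0.32 (SE 0.14, limma adjusted p = 1), which did not pass either.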

How the data were processed

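RNA-seq was carried out on hearts and tibialis anterior (TA) muscles of DBA/2J-mdx mice, and all 15 columns of the table were matched to a sample by their labels. The authors deposited TPM values per gene, made by trimming reads with Trim Galore 0.6.10, quantifying them with Salmon 1.10.3 against GRCm39 and summarising them to genes with tximport, while the annotation release is not given in the sources used here. The TPM keep no depth, so the precision of a value was taken from the spread between hearts alone. Libraries are labelled as separate samples, and p-values measure only the spread between them. Of 56980 identifiers, 56236 were found in GENCODE M39, from which positions and promoters were taken.

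Genes with at least 0.5 TPM in 3 or more hearts were tested on log2(TPM + 0.5) with limma 3.58.1 in R 4.3.3, using a mean-variance trend, labelled sex as a covariate and Benjamini-Hochberg adjustment over all genes. Calls needed an adjusted p-value below 0.05 and a log2 fold change beyond 0.5 in either direction. A heart-by-TA interaction was fitted the same way. On simulated data for the heart comparison with 16132 genes, a log2 change of 1 was called in 141 of 200 genes with 7 false calls, and a log2 change of 2 in 186 of 200 with 6 false calls. The simulated noise was independent between genes, with no sex effect and no shift shared by the genes of a heart. These rates therefore need not hold for the real hearts. Alternatives covered the pseudocount, the filter, the scaling, the trend, the sex covariate, the replicate number as a block, and each heart left out.

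The gene lists and their members were chosen with earlier results of these data known, so their counts are descriptions. Named genes were drawn, for each list, from up to 4 called members with the smallest adjusted p-values, up to 3 members whose groups did not overlap and the 2 with the highest mean TPM, and, outside the lists, from the 10 called genes in each direction with the smallest adjusted p-values. Bhlhe40, Bhlhe41, Col4a2, Col5a3, Cry1, Cry2, Hba-a1, Hbb-bt, Hlf, Kcnj3, Npas2, Nppb, Per1, Per3, Ppbp, Rhd, Sbk3, Smpx, Sptb, Tbx5, Tef, Wee1, Efemp1 and Rpph1 were named outside that rule, after their values had been seen. Some results are not reported here because they rest on withheld items.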

Additional observations from a re-analysis of the deposited data

Results flagged for a closer look

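Among 211 sets of 4 vehicle hearts, for 141 genes and 70 summed lists, 14 held a heart that stood apart, where the gap to its nearest neighbour divided by the whole range exceeded Dixon's 95% critical value, which chance passes in about 1 of 20 sets. Vehicle replicate 2 was the high heart for Aebp1 (a ratio of 0.8375), Hbb-bt (0.8854) and Wif1 (0.8954). Vehicle replicate 3 was the high heart for Cdkn1a (0.9484) and Lpl (0.8314) and the low heart for Sparc (0.9228), and vehicle replicate 4 was the low heart for Nppb (0.8855). In the summed TPM of lists, replicate 2 stood apart on the high side for neutrophil (0.928), lymphocyte (0.887), interferon-stimulated (0.8683), integrin and laminin (0.8404), WNT antagonist (0.8307) and endocardial, valve and lymphatic genes (0.8466), and replicate 4 for immediate early genes (0.9124).

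The difference between the effect in heart and that in TA passed the limma interaction test for 4 genes. On the log2 scale, heart minus TA, it was -6.883 for Myl4, -5.667 for Sln, -3.937 for Sbk3 and 1.898 for Bmal1. The tissues also differed in the age of the mice and the length of treatment, and all D + Q TA libraries are labelled male. Myl4, Sln and Sbk3 are atrial list genes, and the atrial content of the heart samples is not known.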

How the results depend on the processing

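Against 17 genes higher and 34 lower, the limma calls were 0 and 0 without a filter on low values (an unadjusted p-value under 0.05 was reached by 3731), 11 and 32 with median-of-ratios scaling, 2 and 11 without the trend, 3 and 22 with sex read from expression, and 9 and 49 on the nuclear protein-coding scale. With 1 heart left out, they ran from 0 to 59 higher and from 0 to 61 lower. The genes above ran from 1668 to 2849 and those below from 997 to 1858 with 1 heart left out, fewer hearts being needed for no overlap, and came to 644 and 2263 on the protein-coding scale, while those below came to 1457 without a filter. The genes whose effect differed from TA numbered 7 with median-of-ratios scaling and from 2 to 6 with 1 heart left out. None of the 51 called genes changed sign in any fit. The groups of all 51 did not overlap, so only a change of scale could have reversed a sign, and the other fits are no check of it. Same-numbered hearts had correlations of deviations from the group means of -0.0364, 0.0158 and 0.031, within the range of other pairs, -0.0736 to 0.0586. These values show no pairing by replicate number, but so few hearts cannot exclude one. With the replicate number as a block, 0 genes were higher, 4 lower (1927 had an unadjusted p-value under 0.05) and 0 differed from TA. Cry1, near 0, was at 0.003964 with the replicate block, 0.01471 in labelled females only and between -0.1515 and 0.06313 with 1 heart left out. B2m ran from -0.2797 to 0.1224 and C1qa from -0.1404 to 0.04622 with 1 heart left out. Xist, which follows sex, was at -0.3273 with sex read from expression and -0.2432 in labelled females only, and between -0.2432 and 2.956 with 1 heart left out. Where not stated, the cause was not tested. The unknown depth leaves the counting error of low genes unmeasured.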
